A study of Mus musculus with 99 samples.

Results

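The comparison described here sets RNA from mouse embryonic stem cells that carried only catalytically inactive RING1B against RNA from cells that carried only active RING1B. Its members were chosen by their labels and are 4 libraries of the 99 samples of the series, namely 2 of RING1B I53S +OHT and 2 of RING1B WT +OHT. Both lines descended from a Parental line of 129P2/Ola origin that is RING1A-/-, carries floxed RING1B alleles (RING1B fl/fl) and expresses the tamoxifen-activated recombinase creERT2 from the ROSA26 locus. Both lines also carried a transgene driven by the pCAG promoter that encodes 2xFlag-HA-tagged mouse RING1B, either wild type or with serine in place of isoleucine at residue 53. Cells were kept in medium with serum, LIF and the 2i inhibitors and were given 0.5 µM 4-hydroxytamoxifen (OHT) for 72 h to delete the endogenous gene, or ethanol for the same time (-OHT). Each line is a selected stable clone, so differences between the lines that have nothing to do with the transgene's activity are part of every comparison between them. The 2 libraries of each group are labelled as replicates, and where nothing says that they came from separate cultures the p-values measure only the spread between these libraries.

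RING1A and RING1B are the E3 ligases of Polycomb repressive complex 1 (PRC1) and place a single ubiquitin on a lysine near the end of histone H2A (H2AK119ub1). In embryonic stem cells this mark and H3K27me3, the mark of PRC2, lie over the CpG-rich promoters of silent developmental genes. RING1B is both an enzyme and a scaffold: it joins canonical PRC1, which contains CBX proteins and PCGF2 or PCGF4, and variant PRC1, which contains RYBP or YAF2. A substitution at residue 53 disturbs the surface that meets the E2 enzyme, and the study built these lines to separate the ligase activity from the presence of the protein.

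The 4 libraries held between 8140106 and 11124825 counts in genes, and 18154 of 55341 gene names passed the filter on low counts. Levels are given as CPM, that is counts brought to a common library size after normalisation by the TMM method, and not divided by gene length. Rnf2, the gene of RING1B, stood at 167 and 239 CPM in RING1B I53S +OHT and at 260 and 233 CPM in RING1B WT +OHT, and this difference did not pass the test (log2 fold change -0.28 ± 0.195 SE, adjusted p = 0.363 by the edgeR quasi-likelihood test). Counting by gene name pools the transgene with the floxed gene, so Rnf2 counts do not check the deletion. Ring1, the gene of RING1A, was at or under 4.02 CPM in the libraries of both lines. The embryonic stem cell identity was checked with 8 markers, none of which was at 0 in any of the 4 libraries. Their summed level was 3530 and 3450 CPM in RING1B I53S +OHT against 5290 and 5470 CPM in RING1B WT +OHT, none was called by the rule given next, 4 had an adjusted p under 0.05 in edgeR, and their median log2 fold change was -0.62. The 2 libraries of RING1B I53S +OHT differed from each other more than those of any other group (a chi-square of 24.07 per gene, against 5.782 for RING1B WT +OHT and 7.464 to 15 elsewhere). Leaving out RING1B WT +OHT replicate 1 lowered the number of called genes by more than any other library did, and counts without it are given beside the main counts.

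A gene was called when it changed by at least 1.5 on the log2 scale at a false discovery rate under 0.05. With inactive RING1B, 1092 genes were higher (6.02% of those tested) and 109 were lower (0.6%), 1201 in all (6.62%). Genes called higher had a median log2 fold change of 2.2, with 225 of them over 3, and they were weakly expressed with active RING1B: their median level was 1.36 CPM in RING1B WT +OHT and 5.93 CPM in RING1B I53S +OHT. Genes called lower had a median of -1.95 and went from a median of 8.79 CPM to 2.03 CPM. Over all tested genes the median was 0.04 and 52.7% had a positive value. Without RING1B WT +OHT replicate 1 the counts were 339 higher and 90 lower, of which 294 and 67 were among the genes called with all libraries. DESeq2 called 942 higher and 90 lower.

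The genes called higher included transcription factors of the placenta and embryo, matrix and membrane proteins. Gata3, a zinc finger factor of trophoblast and many later lineages (chromosome 2, 9857078 to 9890034, minus strand, GRCm38), was at 35.6 and 36.8 CPM in RING1B I53S +OHT and at 4.93 and 7.6 CPM in RING1B WT +OHT, a 5.81-fold difference (log2 2.54 ± 0.263 SE, adjusted p = 7.48e-06, edgeR). Esx1, a homeobox factor of extraembryonic tissue (chromosome X, 137115397 to 137122083, minus strand), was at 156 and 175 CPM against 16.5 and 18.4 CPM, 9.5-fold higher (log2 3.25 ± 0.248, adjusted p = 1.8e-07, edgeR). Ccnd2, the D-type cyclin that drives entry into S phase, was at 86.3 and 86.5 CPM against 13.4 and 23.7 CPM, 4.69-fold higher (log2 2.23 ± 0.279, adjusted p = 7.15e-05, edgeR). In each of these 3 genes both RING1B I53S libraries lay well above both RING1B WT libraries, and the gap was many times the distance within a pair. Ly6h, a small GPI-anchored surface protein, stood at 22.7 and 28.3 CPM against 2.52 and 3.86 CPM. Col4a2, a chain of basement membrane collagen, stood at 41.4 and 37.1 CPM against 6.64 and 7.35 CPM. Podxl, the sialomucin podocalyxin, stood at 48.4 and 46.1 CPM against 12.3 and 11.6 CPM. The pairs did not overlap in any of them, and log2 fold changes were 3.01, 2.49 and 1.98. Of these genes all but Ccnd2 were among the 10 higher genes with the smallest adjusted p-values. The list of 10 also held Eif2s3y, which is described with the Y chromosome, and Ecel1, Rprml, Car4 and Myl9, whose log2 fold changes were 3.29, 3.65, 3.28 and 3.13. Ccnd2 and all 10 kept their call under every alternative test and with any 1 of the 4 libraries left out.

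The lower genes were led by genes active in embryonic stem cells. Tdgf1, the Nodal co-receptor Cripto (chromosome 9, 110939603 to 110946158, minus strand), was at 118 and 122 CPM in RING1B I53S +OHT and at 589 and 595 CPM in RING1B WT +OHT, 4.94-fold lower (log2 -2.30 ± 0.203 SE, adjusted p = 7.66e-07, edgeR). Aoah, an enzyme that inactivates bacterial lipopolysaccharide (chromosome 13, 20794113 to 21036617, plus strand), fell from 28.8 and 28.1 CPM to 2.31 and 1.81 CPM (log2 -3.79 ± 0.285, adjusted p = 1.8e-07, edgeR). Trh, the precursor of thyrotropin-releasing hormone, fell from 679 and 534 CPM to 88.9 and 115 CPM (log2 -2.58 ± 0.23, adjusted p = 8.49e-07, edgeR). The 2 groups were far apart in these genes. Without OHT both lines had Tdgf1 between 604 and 771 CPM, close to RING1B WT +OHT, but Trh between 1050.0 and 2800.0 CPM, above it. Manba (lysosomal beta-mannosidase), Pecam1 (an adhesion molecule of endothelium that stem cells also carry) and Tdh (threonine dehydrogenase) had log2 fold changes of -2.57, -2.12 and -1.78. The non-coding locus 6330410L21Rik had 2 counts in the RING1B I53S +OHT libraries and 174 in those of RING1B WT +OHT, a ratio of 105 with a counting interval of 28.5 to 870 (95%, exact binomial, counting error only).

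**Figure D1:**
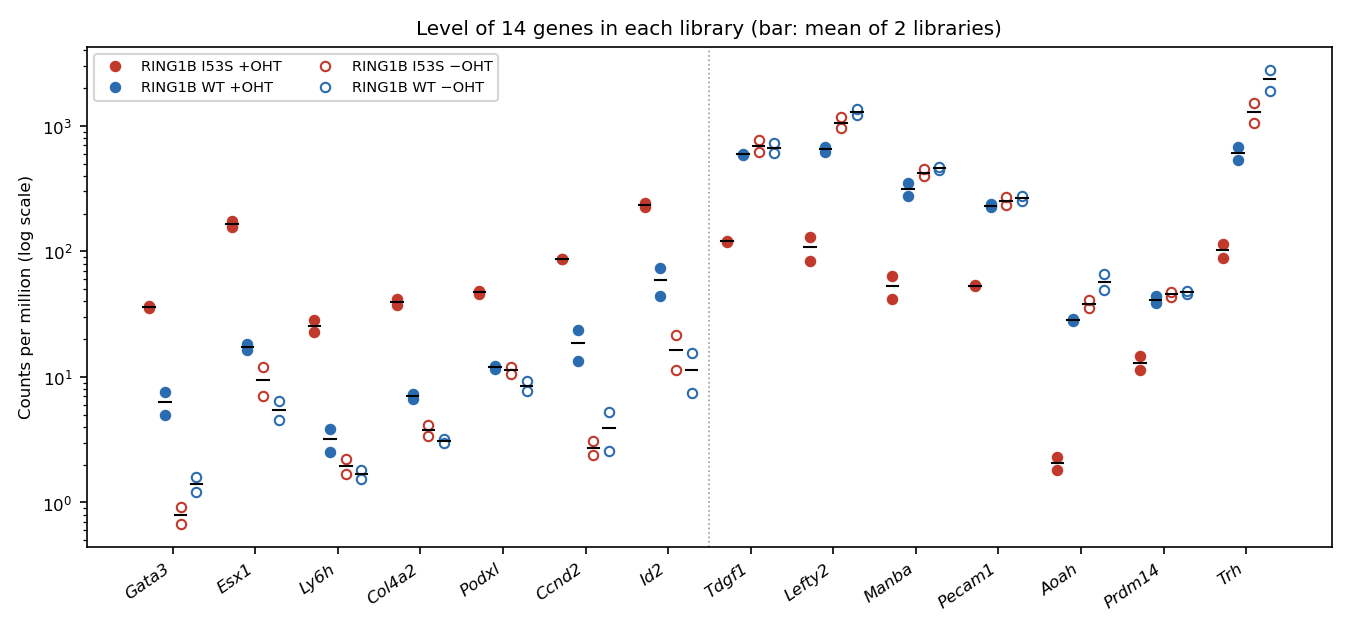
Level in CPM (log scale) of 7 genes higher and 7 genes lower in RING1B I53S +OHT, with each library a point and the mean of 2 libraries a bar, filled with OHT and open without. In all 14 genes the filled red points stand apart from the other groups, for example Gata3 at 35.6 and 36.8 CPM against 4.93 and 7.6 CPM in RING1B WT +OHT.

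The promoters of 7 genes are printed because they show that start sites of called genes varied in CpG content and peaks: genes higher in RING1B I53S with a CpG-rich window (Gata3 and Esx1) or a CpG-poor one (Ecel1), and genes lower with a CpG-poor window (Aoah and Tdgf1) or a CpG-rich one (Manba, without RING1B or H2AK119ub1 peaks over the window, and Trh, with an H2AK119ub1 peak). Each is the RefSeq window of 300 bases on GRCm38.p6, 250 before and 50 after the start, 5′ to 3′ on the strand of the gene, and the capitals mark each CG. Gata3 lies at chr2:9878551-9878850 on the minus strand with 22 CG, Esx1 at chrX:137120277-137120576 on the minus strand with 24 CG, Aoah at chr13:20793863-20794162 on the plus strand with 3 CG, Tdgf1 at chr9:110946109-110946408 on the minus strand with 7 CG Trh at chr6:92244601-92244900 on the minus strand with 28 CG, Ecel1 at chr1:87156307-87156606 on the minus strand with 6 CG and Manba at chr3:135485361-135485660 on the plus strand with 23 CG.
Gata3: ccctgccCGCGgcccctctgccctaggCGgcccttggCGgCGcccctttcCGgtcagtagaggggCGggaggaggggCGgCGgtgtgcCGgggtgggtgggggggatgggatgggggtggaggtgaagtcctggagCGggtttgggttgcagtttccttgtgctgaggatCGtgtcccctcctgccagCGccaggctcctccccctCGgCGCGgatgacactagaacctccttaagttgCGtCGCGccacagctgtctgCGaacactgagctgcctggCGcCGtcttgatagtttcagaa
Esx1: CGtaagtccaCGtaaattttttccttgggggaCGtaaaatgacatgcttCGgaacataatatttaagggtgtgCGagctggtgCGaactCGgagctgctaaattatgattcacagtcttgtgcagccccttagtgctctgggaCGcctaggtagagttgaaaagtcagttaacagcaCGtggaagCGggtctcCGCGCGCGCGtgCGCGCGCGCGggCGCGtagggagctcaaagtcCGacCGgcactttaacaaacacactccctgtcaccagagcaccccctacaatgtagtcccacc
Ecel1: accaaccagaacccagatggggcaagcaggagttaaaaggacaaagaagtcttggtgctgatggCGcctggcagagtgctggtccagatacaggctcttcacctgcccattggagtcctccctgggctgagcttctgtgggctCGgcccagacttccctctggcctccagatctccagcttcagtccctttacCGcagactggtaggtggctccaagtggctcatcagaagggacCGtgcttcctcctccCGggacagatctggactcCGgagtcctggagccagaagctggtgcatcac
Aoah: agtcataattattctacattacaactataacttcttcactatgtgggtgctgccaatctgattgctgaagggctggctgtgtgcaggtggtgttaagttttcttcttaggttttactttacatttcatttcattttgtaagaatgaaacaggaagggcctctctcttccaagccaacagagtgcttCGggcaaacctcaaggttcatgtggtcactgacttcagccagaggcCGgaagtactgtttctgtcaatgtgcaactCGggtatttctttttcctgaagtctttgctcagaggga
Tdgf1: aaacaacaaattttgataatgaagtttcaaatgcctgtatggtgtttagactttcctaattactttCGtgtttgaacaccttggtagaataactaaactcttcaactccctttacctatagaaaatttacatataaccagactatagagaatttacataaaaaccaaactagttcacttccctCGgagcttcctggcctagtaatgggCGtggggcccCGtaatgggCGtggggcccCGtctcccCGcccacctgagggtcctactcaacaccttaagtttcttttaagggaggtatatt
Manba: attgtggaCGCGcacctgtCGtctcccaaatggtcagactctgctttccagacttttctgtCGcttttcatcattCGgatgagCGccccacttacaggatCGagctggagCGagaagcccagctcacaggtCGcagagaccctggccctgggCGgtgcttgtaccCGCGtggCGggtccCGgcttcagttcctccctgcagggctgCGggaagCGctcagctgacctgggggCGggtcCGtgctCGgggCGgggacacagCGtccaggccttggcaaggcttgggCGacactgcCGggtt
Trh: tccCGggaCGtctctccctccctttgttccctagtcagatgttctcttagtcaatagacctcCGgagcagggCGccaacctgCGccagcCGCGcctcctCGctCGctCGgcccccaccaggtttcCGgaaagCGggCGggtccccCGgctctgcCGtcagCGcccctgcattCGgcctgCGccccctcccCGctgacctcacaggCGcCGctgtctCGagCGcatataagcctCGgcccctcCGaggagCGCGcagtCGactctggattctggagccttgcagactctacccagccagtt
In RING1B WT +OHT cells the strongest RING1B peak near a Gata3 start site spanned 4186 bp with a score of 79.3 (-log10 p, as MACS2 gave it), and the RING1B peak at Esx1 spanned 2376 bp with a score of 25.7. The RING1B I53S +OHT peak list held no RING1B peak within 2.5 kb of a start site of either gene. Esx1 had no H2AK119ub1 peak in either line, while Gata3 had H2AK119ub1 peaks in RING1B WT only, within 2.5 kb of a start site but not over the printed window. The window of Ecel1 lay under RING1B and H2AK119ub1 peaks in RING1B WT, and under an H2AK119ub1 peak in RING1B I53S as well. At Trh the H2AK119ub1 peak had a score of 13.5 in RING1B WT and none was listed in RING1B I53S. CG dinucleotides alone did not mark the genes called higher: over such windows cut at the 5′ end of the annotated gene, the median was 15 CG for genes called higher and 15 for all tested genes, and 37.5% against 38.5% held 20 or more. Genes called lower had a median of 6 CG, and 10.1% of them held 20 or more. At least 1 CG was present in 98.5% of all tested windows.

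Developmental transcription factors and lineage markers were called higher far more often than genes at large. Over 11 lists of such regulators combined, 148 of 182 genes were tested, 63 were called higher (42.6%, against 6.02% of all tested genes), none was called lower, and the median log2 fold change was 1.75 against 0.04 over all genes. The Zic factors, held apart from these lists, had 1 higher and 2 lower calls among 5. The lists were not matched to other genes by level. Of all tested genes under 1 CPM in Parental -OHT cells, 20.6% were called higher and the median was 1.1. A gene silent with active RING1B could pass the filter on low counts through other libraries alone, so all these shares are a description. Of the 148, 137 had a positive value and 139 had an H2AK119ub1 peak at the promoter in RING1B WT +OHT. By edgeR 17 of the 148 were called without RING1B WT +OHT replicate 1, and between 42 and 50 without any other library. In the bulk libraries a change in the share of cells of a type and a change in RNA per cell cannot be told apart.

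Among the Hox genes, which set position along the body axis, 9 of 29 tested were called higher (6.02% of all tested genes were) and the median was 1.75. Hoxb13 stood at 17.3 and 25 CPM in RING1B I53S +OHT and at 4.63 and 5.98 CPM in RING1B WT +OHT (log2 2.00 ± 0.374 SE, adjusted p = 0.00177, edgeR). Hoxd13 had 2.76 and was not called without either replicate 1, and without RING1B WT +OHT replicate 1 only 1 of 29 Hox genes was called. The Hox median was 1.31 without that library and 2.39 without RING1B WT +OHT replicate 2. Among factors with other homeodomains, 12 of 19 Dlx, Msx, Irx and sine oculis-type genes, 7 of 12 LIM homeobox genes and 3 of 9 Nkx genes were higher, with medians of 2.28, 2.16 and 1.37. Dlx3, a factor of placenta and skin, stood at 23.7 and 29.4 CPM against 6.34 and 4.48 CPM. Of the Pax factors 5 of 8 were higher, and Pax3, a factor of neural crest and muscle, stood at 16.4 and 17.7 CPM against 3.52 and 3.74 CPM. Pax9 had a log2 fold change of 2.83 ± 0.432. Of the T-box factors 6 of 12 were higher, with a median of 1.34. Without RING1B WT +OHT replicate 1 the counts were 3 for the Dlx group, 0 for LIM, 1 for Nkx, 2 for Pax and 0 for T-box factors.

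Genes of several lineages were called, against 6.02% of all tested genes called higher. Of 17 trophoblast regulators and markers 7 were higher with a median of 1.44. Id2, an inhibitor of basic helix-loop-helix factors, stood at 244 and 227 CPM against 44.0 and 74.3 CPM, and Hand1, a factor of giant cells and heart, stood at 12.1 and 15.2 CPM against 2.92 and 3.99 CPM. Cdx2, the factor that specifies trophectoderm, was at 2.21 and 2.32 CPM against 0.101 and 0.872 CPM and did not pass the test (log2 2.28 ± 0.848, adjusted p = 0.0807, edgeR). None of 6 simple epithelial keratins was called: Krt18 had 1.02 and Krt8 0.81. All 6 had a positive value, however, and by the adjusted p alone 3 were higher, against 9.69% of all tested genes. Of the Gata factors 4 of 6 were higher. Gata2 stood at 29.5 and 18.7 CPM against 6.14 and 7.35 CPM, and Gata6, the factor of primitive endoderm, stood at 6.42 and 4.65 CPM against 0.503 and 1.37 CPM. Gata6 was not called without RING1B WT +OHT replicate 1, nor Gata2 without RING1B I53S +OHT replicate 1 (log2 1.47). Of 13 endoderm genes 5 were higher and none without RING1B WT +OHT replicate 1, Sox7 and Pdgfra among them (log2 2.94 and 1.74). Of 18 mesoderm genes 7 were higher: Wnt3 and Mixl1, genes of the primitive streak, had 1.85 and 2.16. Of 19 neural genes 5 were higher, and Nes, the neural stem cell filament nestin, stood at 37.6 and 35.4 CPM against 10.9 and 14.4 CPM. Nes was not called with either replicate 1 left out (log2 1.49 and 1.34).

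Markers of other cell types were summed as well. Over all tested genes 6.02% were called higher, and weak markers could pass the filter on low counts through the groups where they were high. Of 6 primitive endoderm markers 5 were higher and their sum was 39.1 and 38.4 CPM in RING1B I53S +OHT against 8.96 and 12.8 CPM in RING1B WT +OHT. Of 5 tested trophoblast markers 2 were higher, with sums of 221 and 243 CPM against 48.4 and 57.7 CPM. Most of the RING1B I53S +OHT sums came from Esx1, at 156 and 175 CPM against 16.5 and 18.4 CPM. Krt7, which was not called, made up 45.8 and 46.9 CPM against 27.8 and 32.4 CPM. Of 5 mesoderm markers 2 were higher (19.3 and 17.6 CPM against 6.74 and 5.23 CPM), and of 3 tested neural markers 1 was higher (34.4 and 43.4 CPM against 38.7 and 41.8 CPM). Of 4 tested fibroblast markers 1 was higher, with sums of 59.3 and 71.6 CPM against 34.3 and 33.0 CPM, and between 2 and 4 of the 8 fibroblast markers were at 0 in each of these libraries. Of 5 tested genes of a wider fibroblast list 2 were higher: Fbn1, the microfibril protein fibrillin, had 2.23, and Col1a2, a collagen chain, was not called without RING1B WT +OHT replicate 1. Without RING1B WT +OHT replicate 1 the wider lists held 5 calls for trophoblast, 2 for the Gata factors, 3 for mesoderm and 2 for neural genes. The part of other cell types in the results was not tested.

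**Figure D2:**
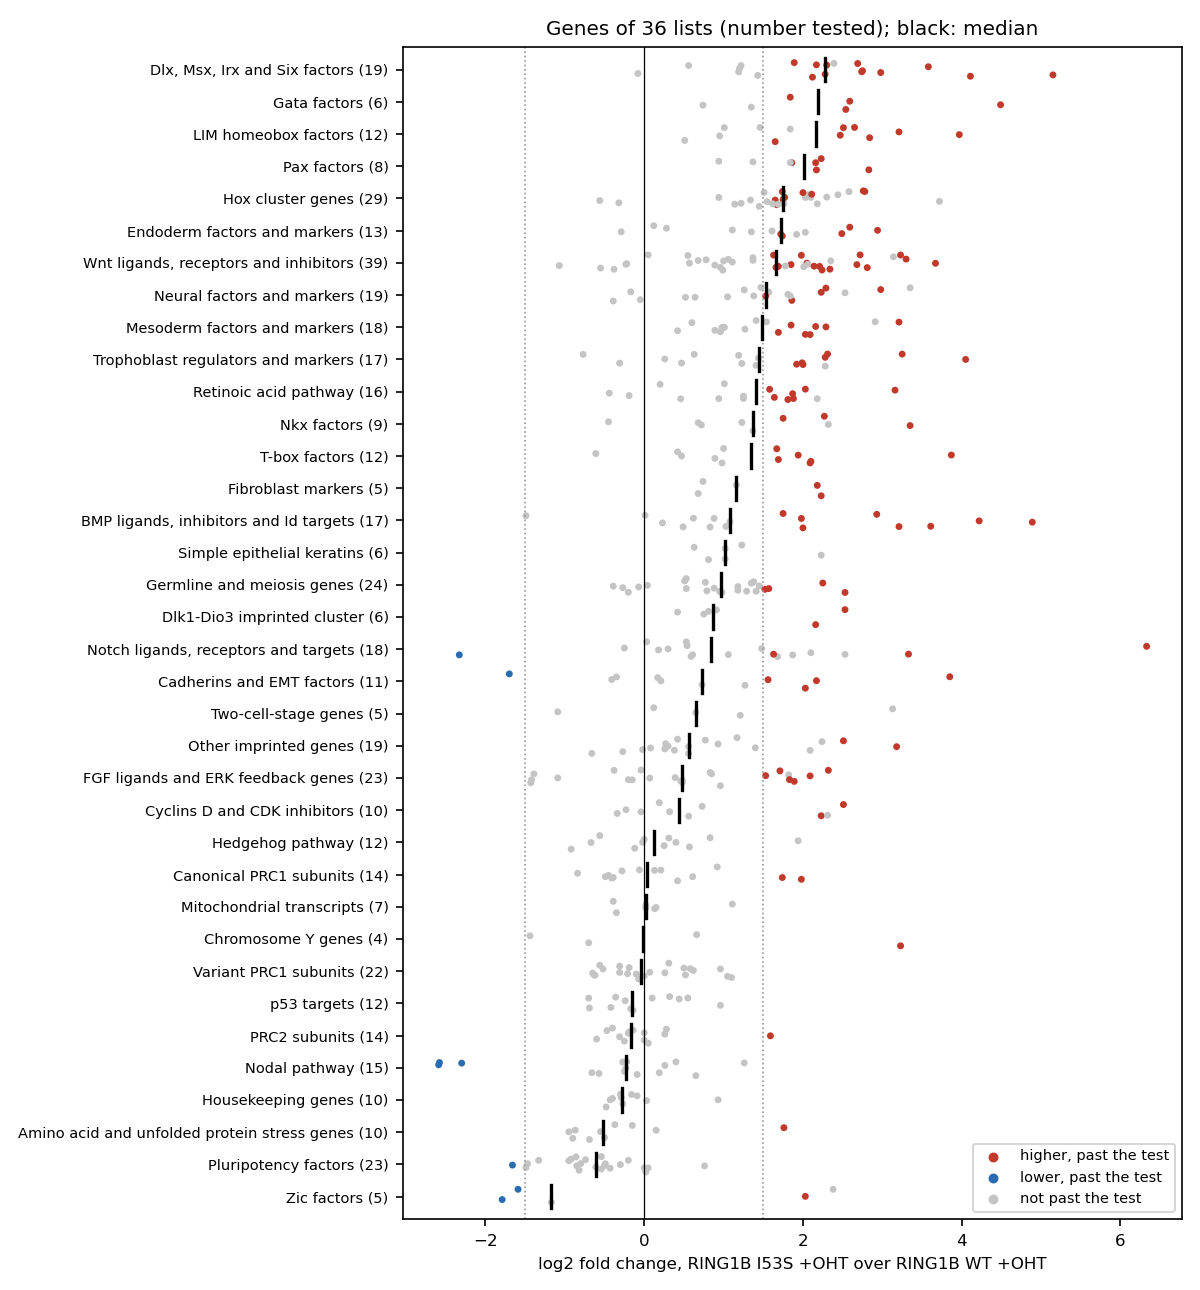
Log2 fold change of RING1B I53S +OHT over RING1B WT +OHT (x axis) for the tested genes of 36 lists (y axis, number tested in brackets), with each gene a point and the list's median a black bar, and dotted lines at 1.5 in either direction. Lists of developmental regulators lie at the top with medians up to 2.28 (Dlx, Msx, Irx and sine oculis-type factors), while the pluripotency factors (-0.61) and Zic factors (-1.17) lie at the bottom.

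Secreted signals and their inhibitors were examined by pathway, against 6.02% of all tested genes called higher. Of 39 tested Wnt ligands, receptors and inhibitors 16 were higher and none lower, with a median of 1.66. The ligand Wnt5a stood at 9.23 and 9.56 CPM against 1.71 and 1.99 CPM (log2 2.34 ± 0.418 SE, adjusted p = 0.0012, edgeR). The secreted inhibitors Sfrp2, Wif1 and Sfrp5, which bind Wnt proteins outside the cell, were higher as well, with log2 fold changes of 1.66, 2.24 and 3.30. Of 17 genes of the BMP pathway 8 were higher, with a median of 1.08: Bmp6 (2.93) and Bmp8b (1.75) encode ligands, and Id1, a direct target, stood at 44.1 and 78.0 CPM against 12.8 and 18.3 CPM. Of 16 retinoic acid pathway genes 7 were higher, with a median of 1.41. Aldh1a2, which makes retinoic acid, and Cyp26a1, which breaks it down, had 1.87 and 3.16, and Rbp4 and Crabp2, carriers of retinol and retinoic acid, had 1.81 and 1.64. These counts depended on single libraries: without RING1B WT +OHT replicate 1 they were 6 for Wnt, 2 for BMP and 2 for retinoic acid, and without RING1B I53S +OHT replicate 2 the last was 1.

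The FGF and Notch lists were mixed and the Hedgehog list held no call, against 6.02% of all tested genes called higher and 0.6% lower. Of 23 FGF ligands and ERK feedback genes 6 were higher with a median of 0.48, and none was called without RING1B WT +OHT replicate 1. Fgf13 (1.83), Fgf5 (2.32), Etv4 (1.89) and Dusp5 (1.53) were among them, the last a phosphatase that dampens ERK. Of 18 Notch genes 3 were higher and 1 lower. The lower gene was Notch4, a receptor, at 6.42 and 5.25 CPM against 32.2 and 26.4 CPM (log2 -2.33 ± 0.273, adjusted p = 3.31e-05, edgeR). The higher genes were the ligand genes Dll3 and Dll4 and the target gene Heyl, and without RING1B WT +OHT replicate 1 only Notch4 was called. Dll4 had no count in either RING1B WT +OHT library, and against the level that 3 counts over both libraries would give (0.167 CPM) it was at least 5.75-fold higher. In the Hedgehog list Ptch1 and Gli2 had -0.56 and -0.67, with an adjusted p of 0.0752 and 0.0239 by edgeR, and the median of 12 genes was 0.13.

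The Nodal pathway and the pluripotency factors held 4 of the 109 lower calls and no higher one. Of 15 Nodal pathway genes 3 were lower (0.6% of all tested genes were) and none higher. Besides Tdgf1 these were the inhibitors Lefty2, at 83.8 and 131 CPM against 675 and 623 CPM, and Lefty1, at 13.8 and 22.6 CPM against 129 and 89.8 CPM. The ligand Nodal was at 91.7 and 144 CPM against 170 and 180 CPM and did not pass the test (log2 -0.57, adjusted p = 0.134, edgeR). The count was 3 with any 1 of the 4 libraries left out. Of 23 pluripotency factors 1 was lower, namely Prdm14, a repressor of the FGF pathway and of DNA methylation, at 11.4 and 14.6 CPM against 44.1 and 38.5 CPM (log2 -1.66 ± 0.212, adjusted p = 8.09e-05, edgeR). It was not called without RING1B I53S +OHT replicate 1. By the adjusted p alone, which took in 3.58% of all tested genes as lower and 9.69% as higher, 14 of the 23 were lower and 1 higher. The median was -0.61, against 0.04 over all genes and -0.25 over genes at 100 CPM or more in Parental -OHT cells. Of the 23, 1 lay in the distal part of chromosome 14 described below, which was lower in the RING1B I53S line without OHT as well. Tfcp2l1 stood at 875 and 719 CPM against 1340.0 and 1320.0 CPM (log2 -0.74), and Zfp42 (Rex1), named here after its values were seen, at 206 and 199 CPM against 551 and 586 CPM.

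Cell cycle, adhesion and germline lists held a few calls each, against 6.02% of all tested genes called higher and 0.6% lower. Of 10 cyclin D and CDK inhibitor genes 2 were higher, Ccnd2 and Cdkn1c. Cdkn1c, the imprinted inhibitor p57, stood at 20.5 and 13.4 CPM against 2.72 and 3.24 CPM (log2 2.51 ± 0.349, adjusted p = 0.000145, edgeR). Cdkn1a, the inhibitor p21 and a target of p53, stood at 650 and 660 CPM against 481 and 569 CPM and did not pass the test (adjusted p = 0.196, edgeR), and none of 12 p53 targets was called. Of 11 cadherin and epithelial-mesenchymal transition genes 4 were higher and 1 lower: Cdh11 had 3.85, Zeb2 2.17 and Cdh2, N-cadherin, 1.56, while Zeb1 had -1.70. Cdh2 and Zeb2 were not called with RING1B I53S +OHT replicate 1 or RING1B WT +OHT replicate 1 left out, nor Zeb1 and Cdh2 without RING1B I53S +OHT replicate 2. Of 24 germline and meiosis genes 4 were higher by the fold threshold, against 6.02% of all tested genes, and 2 without RING1B WT +OHT replicate 1. By the adjusted p alone 13 were higher, against 9.69% of all tested genes. Tdrd1, a factor of the piRNA pathway, stood at 19.8 and 25.1 CPM against 2.62 and 5.23 CPM, and Tex101, a germ cell surface protein, at 28.2 and 34.4 CPM against 3.52 and 9.84 CPM.

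Imprinted genes and the Polycomb genes themselves were also examined, and shares in several of these lists were near the 6.02% of all tested genes. In the Dlk1-Dio3 cluster the paternally expressed Dlk1 and Dio3 were higher (log2 2.53 and 2.16), and Dio3 was not called without RING1B WT +OHT replicate 1. Of the maternally expressed transcripts of the cluster, Meg3 was at 204 and 59.0 CPM against 118 and 78.5 CPM and did not pass the test (adjusted p = 0.552, edgeR). Its spread within RING1B I53S +OHT was wider than the difference of the means. Rian had a log2 fold change of 0.81 (adjusted p = 0.0613, edgeR). Of 19 other imprinted genes 2 were higher, Cdkn1c and H19, and H19 stood at 41.7 and 23.3 CPM against 1.81 and 5.48 CPM (log2 3.18). Among the canonical PRC1 genes Cbx8, itself under RING1B and H2AK119ub1 peaks, was higher (1.74), and it was not called without RING1B I53S +OHT replicate 2 or RING1B WT +OHT replicate 1. None of 22 variant PRC1 genes was called, and of 14 PRC2 genes only Phf19 was (1.59, and 1.11 without RING1B WT +OHT replicate 2). The 10 housekeeping genes (median -0.28), the 7 mitochondrial transcripts (0.02) and the 5 genes of the embryo's first cleavage stage held no call. Of 10 stress genes Atf3 was called (1.76), with 15.6 and 66.6 CPM against 6.74 and 17.8 CPM, and it had 0.37 without RING1B I53S +OHT replicate 2. It was also not called by DESeq2 or without RING1B WT +OHT replicate 1.

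By class of gene, protein-coding genes made up most of the higher calls (1064 of 15068 tested, 7.06%). Processed pseudogenes had none among 938, but 22 of them were lower (2.35%). Tdgf1-ps1 stood at 6.12 and 8.61 CPM against 50.1 and 48.9 CPM. Such copies are nearly identical to their parent genes, so reads of Tdgf1 and its copy may be split between them and their separate values are uncertain. Reads were counted without strand, so an antisense gene and its partner cannot be told apart.

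Without OHT, where endogenous RING1B was still present, few genes differed between the lines: 2 were higher (0.011%) and 6 lower (0.0331%) in RING1B I53S -OHT than in RING1B WT -OHT, 8 in all (0.0441%), and 960 (5.29%) had an unadjusted p under 0.05 in edgeR. With RING1B I53S -OHT replicate 1 or RING1B WT -OHT replicate 2 left out 1 gene was called, and with RING1B I53S -OHT replicate 2 left out 5 were. Of the 8, 5 lay on the distal part of chromosome 14 and 2 on chromosome Y. The genes of chromosome 14 from Dmtn to the end (70601263 to 123627144, GRCm38, bounded from the libraries without OHT) were lower in the RING1B I53S line as a block. Of 68 such genes at 10 CPM or more, 67 had a negative log2 fold change without OHT and 67 with OHT, with medians of -0.98 and -1.02. Proximal genes of the chromosome had medians of -0.01 and -0.07. The boundary was placed where the values without OHT split best, so the counts and medians without OHT partly follow from that choice. Within the lines OHT left the block near 0, with medians of -0.11 in RING1B WT and -0.19 in RING1B I53S. This segment held 13 of the 109 lower calls (11.9%), among them Zic5, at 6.02 and 3.19 CPM against 15.9 and 15.7 CPM with OHT and at 7.96 and 9.88 CPM against 28.9 and 26.5 CPM without, and Tgds, with log2 fold changes of -2.04 with OHT and -1.69 without. Zic2 had -1.59 and -1.60. Zic2 and Zic5 were the 2 lower calls of the Zic list, and neither was called without RING1B I53S +OHT replicate 2 (-1.44 and -1.39). Zic1, on chromosome 9, was higher (2.03), but it was not called with RING1B I53S +OHT replicate 1 or either RING1B WT +OHT library left out. Within this segment the inactive transgene and other differences between the clones cannot be told apart, and outside it 96 genes were lower. Genes called with OHT leaned the same way without it. The 1092 higher genes had a median log2 fold change of 0.36 between the lines without OHT, and 66.0% were positive. Over all tested genes these values were 0.004 and 50.6%, and for the 96 lower genes -0.20 and 30.2%.

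**Figure D3:**
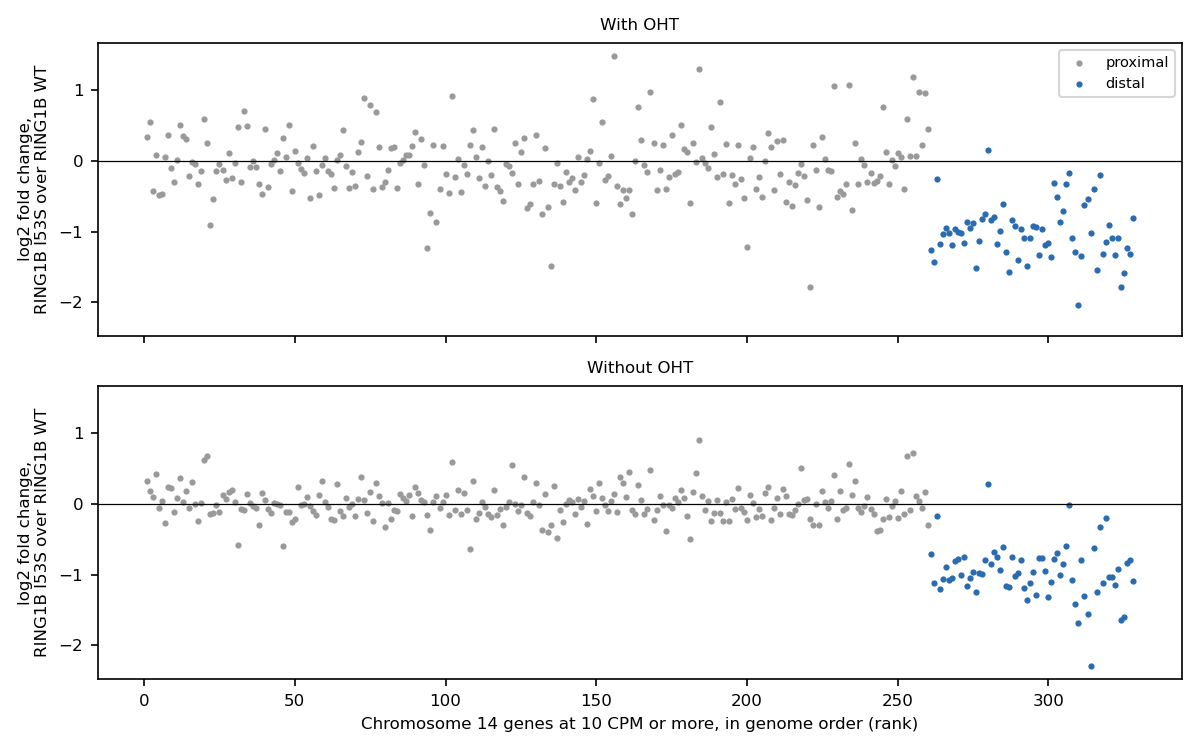
Log2 fold change of RING1B I53S over RING1B WT (y axis) for chromosome 14 genes at 10 CPM or more in genome order (x axis, rank), with OHT above and without OHT below, blue for the distal 68 genes. The blue genes lie near -1 in both panels (medians of -1.02 and -0.98) and the proximal genes lie around 0. The boundary was chosen on the values of the lower panel.

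Eif2s3y, a Y-linked translation initiation factor, differed between the lines with and without OHT. It stood at 84.8 and 67.7 CPM against 9.06 and 7.1 CPM with OHT, and at 93.8 and 98.0 CPM against 7.59 and 7.35 CPM without OHT, with log2 fold changes of 3.23 and 3.68. It was thus as far apart without OHT as with it. Zfy1, a Y-linked zinc finger factor, was the other gene higher without OHT (log2 1.69, adjusted p = 0.0273, edgeR), and it had 0.61 with OHT (adjusted p = 0.218, edgeR). Of the other Y-linked genes Ddx3y had -1.44 with OHT (adjusted p = 0.0209, edgeR) and -1.30 without (adjusted p = 0.399, edgeR). Uty had -0.70 with OHT and -0.01 without, and neither passed the test. Away from chromosomes 14 and Y, Etv4 was lower without OHT (log2 -3.45, adjusted p = 0.0342, edgeR).

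The difference between the lines could also be compared with what OHT did within each. With OHT 2323 genes were called higher (12.8%) and 188 lower (1.04%) in RING1B I53S, and 244 higher (1.34%) and 7 lower (0.0386%) in RING1B WT. By the test of the difference itself (the interaction of line and OHT, which shares its libraries with the comparison above), 38 genes had a higher OHT effect in RING1B I53S (0.209%) and 25 a lower one (0.138%), 63 in all (0.347%). The 38 had a median OHT effect of 3.46 on the log2 scale in RING1B I53S and 0.62 in RING1B WT, and 33 of them had an H2AK119ub1 peak at the promoter. The 25 had medians of -2.60 and -0.31. None of the 63 lay on distal chromosome 14. Of the 1092 genes called higher between the lines with OHT 35 were among the 38, and of the 109 called lower 21 were among the 25. Ccnd2 rose by 4.99 ± 0.334 (SE) in RING1B I53S and by 2.23 ± 0.326 in RING1B WT, so it responded to OHT in both lines and more so with the inactive protein (difference 2.75, adjusted p = 0.00971, edgeR). Tdgf1 had -2.53 ± 0.205 and -0.17 ± 0.193. The number and balance of these calls rested on single libraries: the test called 1 higher and 8 lower without RING1B WT +OHT replicate 1, 17 higher and 19 lower without RING1B I53S -OHT replicate 2, and 7 higher and 10 lower without RING1B WT -OHT replicate 1.

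The Parental line, which has no transgene and so is left without RING1A and RING1B after OHT, gives a contrast between 4 libraries that are in neither group of the comparison of the 2 lines, though the filter, normalisation and spread were estimated over all 12. OHT called 2748 genes higher (15.1%) and 333 lower (1.83%) there. Of the 1092 genes higher with inactive RING1B, 1011 were higher in Parental cells, which is 92.6% of the first list and 36.8% of the Parental list, and 1089 had a positive value with a median of 3.31. The share was 88.5% of the genes called without RING1B WT +OHT replicate 1. None was lower. Of the 109 lower genes, 61 were lower in Parental cells (56.0% of these and 18.3% of the Parental list) and none was higher. Outside distal chromosome 14 this was 56 of 96. Gata3 was at 52.9 and 51.8 CPM in Parental +OHT and at 0.489 and 0.494 CPM in Parental -OHT, and Esx1 at 226 and 215 CPM against 9.61 and 6.55 CPM.

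Seen the other way, the 2748 genes higher in Parental cells made up 28500 and 35700 CPM of RING1B I53S +OHT and 12100 and 15900 CPM of RING1B WT +OHT. Without OHT they made up 9080 and 7310 CPM in RING1B I53S, 7640 and 6000 CPM in RING1B WT, and 7620 and 6570 CPM in Parental cells, and with OHT 35000 and 38100 CPM in the latter. Of the RING1B I53S +OHT libraries 1 thus lay within the range of Parental +OHT and 1 below it, and the RING1B WT +OHT libraries lay between these and the untreated cells. The genes were chosen as higher with OHT in these same Parental libraries. That choice raises the Parental +OHT sums and lowers the Parental -OHT sums, so this order is a description only. The median log2 fold change of the 2748 genes between the lines was 1.53 and 97.7% were positive. The 333 genes lower in Parental cells made up 6330 and 6520 CPM against 16000 and 14800 CPM.

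**Figure D4:**
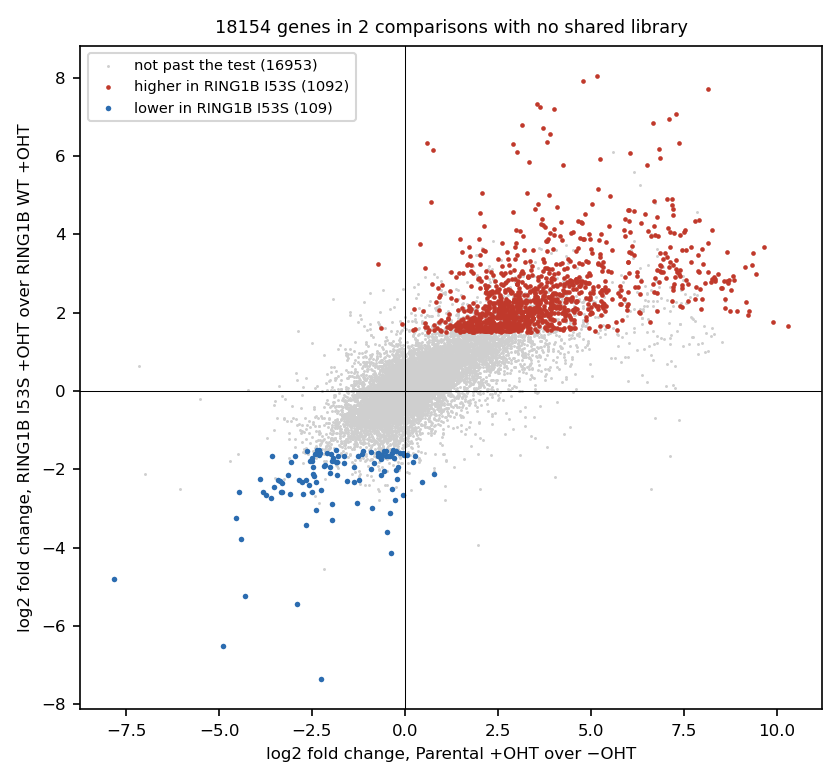
Log2 fold change of RING1B I53S +OHT over RING1B WT +OHT (y axis) against that of Parental +OHT over -OHT (x axis) for all tested genes, each a point. Of 1092 genes higher with inactive RING1B (red) 1089 lie right of 0, and of the 109 lower genes (blue) 5 do.

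Loss of EED, a core subunit of PRC2, served as another reference. The cells used for it came from blastocysts of ROSA26:creERT2 Eed fl/fl mice rather than from the RING1A-/- Parental line. In the 4 Eed fl/fl libraries, fitted apart from the others, edgeR called 2 genes higher (0.00795%) and none lower with OHT, and 1372 (5.45%) had an unadjusted p under 0.05. No other tool was run on these libraries. Of the genes higher with inactive RING1B 980 could be measured there, and 777 of them (79.3%) had a positive value with a median of 0.34, against 50.8% and 0.01 over all tested genes, and none was called. Gata3 had 0.57 and Esx1 1.08, with an adjusted p of 0.833 each (edgeR).

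The genes called higher were then set against the peak lists of RING1B WT +OHT cells, where a gene counted as carrying a peak if it touched the 2.5 kb before or after a GENCODE start of the gene. These lists came from other samples than the RNA, with 1 library for each antibody except MTF2 and JARID2, so the shares carry no replicate error. An H2AK119ub1 peak was present at 879 of the 1092 higher genes (80.5%), at 12 of the 109 lower genes and at 31.1% of all tested genes. RING1B peaks lay at 68.8%, 3.67% and 14.8%, and H3K27me3 peaks at 88.2%, 4.59% and 27.9%. Read from the chromatin side, 27.9% of genes with a RING1B peak were higher against 2.21% of genes without. An H2AK119ub1 peak without RING1B went with 5.54%, both together with 29.1% and neither with 1.32%. Genes silent with active RING1B could pass the filter on low counts through other libraries alone, so shares by promoter state are a description. With at least 10 counts in every library the shares with and without a RING1B peak were 13.2% and 0.648%. Without RING1B WT +OHT replicate 1 the shares with and without a RING1B peak were 8.35% and 0.737%.

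The subunits and marks that accompanied RING1B divided its promoters further. Of genes with RING1B and H3K27me3 peaks 30.8% were higher, against 11 of 294 (3.74%) with RING1B but without H3K27me3. With RING1B and PCGF2, a subunit of canonical PRC1, 32.8% were higher, while 2.63% were at promoters with PCGF6, a subunit of a variant PRC1, but without PCGF2. CBX7 peaks lay at 59.7% of the higher genes and 9.88% of all tested, and JARID2 peaks at 82.1% and 18.3%. In RING1B I53S +OHT cells the shares of higher genes and of all tested genes were 6.04% and 3.29% for RING1B, 36.7% and 13.4% for H2AK119ub1, and 57.3% and 18.2% for H3K27me3. They were 50.4% and 14.2% for SUZ12, 0.275% and 0.0771% for CBX7, and 11.3% and 1.38% for JARID2. Of genes whose H2AK119ub1 peak was lost in RING1B I53S 14.2% were higher, and of those with a peak in both lines 17.7%. For SUZ12, a core subunit of PRC2, these shares were 15.4% and 22.9%, and neither difference was tested. Peak lists depend on depth and threshold in each library, so a missing peak is not a measured absence, and a listed peak is not a measured level. From western blots and spike-in ChIP-seq the study reported that H2AK119ub1 was lost completely at PRC1 targets in RING1B I53S +OHT cells. The H2AK119ub1 peaks listed there were not tested against that report.

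**Figure D5:**
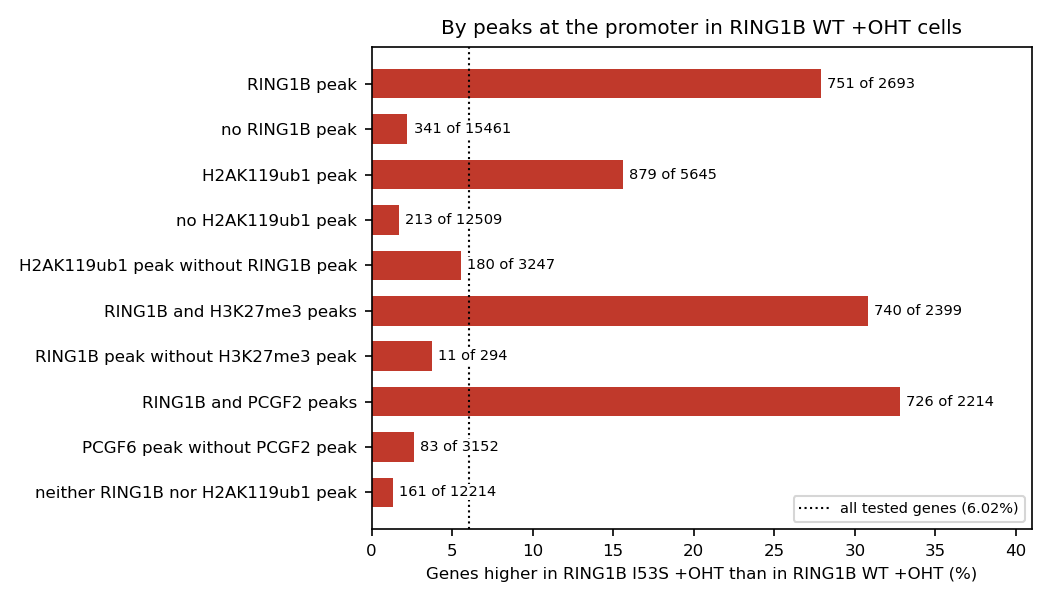
Percent of tested genes called higher in RING1B I53S +OHT (x axis, bars from 0) by the peaks at their promoters in RING1B WT +OHT cells, with the number of genes beside each bar and the share of all tested genes, 6.02%, as a dotted line. Promoters with RING1B together with H3K27me3 or PCGF2 stand at 30.8% and 32.8%, and those with RING1B but no H3K27me3 at 3.74%. Genes silent with active RING1B could pass the filter on low counts through other libraries alone.

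Genes already expressed in Parental -OHT cells were seldom called higher. Of genes at 10 to 100 CPM in Parental -OHT cells 0.158% were higher with inactive RING1B and 0.56% lower, and of those at 100 CPM or more none of 2525 was higher and 0.436% were lower. The share for genes at 1 to 10 CPM is not given, and that for genes under 1 CPM, given with the developmental lists, is a description. Such weak genes could pass the filter through the groups where they were high. Requiring 10 counts in every library, which leaves out many genes that were silent with active RING1B, gave 253 higher and 55 lower calls among 12929 genes.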

How the data were processed

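RNA libraries were made by SMART-seq2 from poly-A RNA. Per the labels and the study's methods, the authors used STAR 2.7 on mm10 and kept uniquely mapped reads, removed duplicates and counted exons without strand by gene name with featureCounts on GENCODE M21. The deposited values are raw counts, with no sample pooled. ChIP-seq peaks were called by the authors with MACS2 2.1.1 in each library on Bowtie 1.2.2 alignments, and the deposited score is -log10 of the peak p-value, at least 10. Here, 12 RNA libraries of 6 groups (WT, I53S and Parental, with and without OHT) were fitted together in edgeR 4.0.16 (filterByExpr, TMM, quasi-likelihood test, Benjamini-Hochberg adjustment). The 4 Eed libraries were fitted apart. Library totals and promoter overlaps (at least 1 bp, 28 peak lists) were computed in R 4.3.3 and Python 3.11.15. Scripts were tested on simulated data. The alternatives were DESeq2 1.42.0, RLE normalization, other filters and thresholds, a fit of fewer libraries, a replicate block and leaving out each library. Named genes were 23 genes picked from earlier results and the study, the 10 with the smallest adjusted p among those called in each direction, up to 4 per list and 5 in each direction for the other 2 tests between the lines, less those left out for length. The comparison, the 36 gene lists and the rule were chosen with earlier results of these data known. CPM precision is limited by depth and by 2 libraries per group, and PCR copies are not independent molecules. 1 sample without a group and ChIP samples of other treatments were not used here. Some genes of the lists are not reported here.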

Additional observations from a re-analysis of the deposited data

Results flagged for a closer look

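The effect of OHT differed between RING1B I53S and RING1B WT for 63 genes by the edgeR interaction test. Among genes that rose more in RING1B I53S, the difference of the 2 OHT effects on the log2 scale was 2.45 for Esx1 (4.12 against 1.67), 3.33 for Gata3 (5.46 against 2.13), 2.42 for Dgat2 (2.82 against 0.40), 3.03 for Dclk1 (2.58 against -0.45) and 5.33 for Etv4 (4.31 against -1.03). Dgat2 makes triglycerides and Dclk1 is a microtubule-associated kinase. Etv4, an ETS factor downstream of FGF, was already apart without OHT, at 0.232 and 0.288 CPM in RING1B I53S -OHT against 2.57 and 3.29 CPM in RING1B WT -OHT, and the order turned with OHT (3.51 and 7.06 CPM against 0.705 and 2.24 CPM).

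Among genes that fell more in RING1B I53S, the difference was -7.32 for 6330410L21Rik (-7.09 against 0.23), -2.46 for Manba (-3.01 against -0.55), -3.20 for Aoah (-4.22 against -1.01), -2.05 for Pecam1 (-2.24 against -0.19) and -2.74 for Tdgf1-ps1 (-2.97 against -0.23). All libraries of RING1B WT +OHT lay above those of RING1B I53S +OHT in these genes. The value of 6330410L21Rik rests on 2 counts in RING1B I53S +OHT.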

How the results depend on the processing

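No named gene changed the sign of its fold change under any alternative run, but the balance of higher and lower calls turned in the smaller comparisons. Against 1201 called genes with OHT, the count was 308 with at least 10 counts in every library (82.1% of them higher, against 90.9%), 1815 with a log2 threshold of 1 and 2409 (1759 higher and 650 lower) without a fold threshold. It was 429 to 1047 with 1 library left out, with the lowest value without RING1B WT +OHT replicate 1, and 1184 without the genes of distal chromosome 14, an alternative chosen after seeing the data. DESeq2 gave 1032 and RLE normalization 1232. Against 8 genes without OHT, where 2 were higher, the count was 15 by DESeq2, 27 without a filter on low counts (14 higher), 25 with a log2 threshold of 1 and 28 without a fold threshold. It was 1 to 8 with 1 library left out, the lowest (1 higher) without RING1B I53S -OHT replicate 1 or RING1B WT -OHT replicate 2. Against 63 genes in the interaction test (38 higher), it was 121 by DESeq2 (91 higher), 198 without a filter (165 higher) and 41 with at least 10 counts in every library, and 9 to 66 with 1 library left out, the lowest (1 higher and 8 lower) without RING1B WT +OHT replicate 1. The share also higher in Parental cells was 92.6%, and 87.6 to 95.1% with 1 library left out. The share with an H2AK119ub1 peak fell from 80.5% to 55.3% when peaks had to reach a score of 20, where all tested genes had 16.4%. Of 132 named genes, 44 and 8 lost their call when RING1B WT +OHT replicate 1 or replicate 2 was left out, 12 and 20 when the same was done with RING1B I53S +OHT, 6 with only the libraries compared and 2 by DESeq2. The 132 included genes that were not called with all libraries, such as Cdx2, and these could not lose a call. The causes of these changes were not tested.

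With the replicate number as a replicate block the counts were 1336 with OHT, 13 without OHT and 96 in the interaction test, and Cdx2 was called (2.40). The labels do not say what a shared number stands for, and 2 numbers cannot settle whether it pairs the libraries. The replicate differences of 2 groups had correlations over 11738 genes of 0.449 to 0.563 among the -OHT groups and 0.24 to 0.275 among the +OHT groups (0.245 for RING1B I53S and WT), and of -0.035 to 0.215 across treatments, a description across genes that are not independent. With 2 libraries a group, a gene of few counts could change without being called.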
